A study of Mus musculus with 8 samples.

Results

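The signal of mature microRNAs (miRNAs) was set against the signal of their precursors in control haematopoietic stem and progenitor cells, form against form on the same array. The arrays were those of the 4 Ctrl mice (labelled WT LSK) among 8 arrays in all, and 264 hairpins had both a mature and a precursor probe under the same name and genomic copy. They were found among 433 mature and 274 precursor names, and probes that read both forms were left out. The mice were 10-week-old C57BL/6 females of genotype Tsc1f/f,Mx1-Cre-, that is, with floxed Tsc1 alleles and no Cre transgene. The design text also speaks of conditional alleles of Raptor, which the genotype labels do not name. Like their Cre-positive littermates, the Ctrl mice were given pIpC, a double-stranded RNA that induces interferon, 7 times at 400 µg, and bone marrow cells were sorted as Lin-cKit+Sca1+ (LSK) 10 days after the last injection. Each array is a separate mouse and no contrast of genotypes was made. LSK cells are a mixture of stem and progenitor cells, so fewer cells with a miRNA and less of it per cell cannot be told apart.

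A miRNA gene is transcribed into a long primary transcript, from which Drosha and DGCR8 cut a hairpin in the nucleus. Exportin-5 carries the hairpin, or precursor, into the cytoplasm, where Dicer cuts out a short duplex, and 1 strand of it, the mature miRNA, is loaded into an Argonaute protein. The seed, bases 2 to 8 of the mature strand, pairs with target mRNAs. A precursor probe reads the hairpin or a longer transcript that holds it, and a mature probe can also bind its sequence inside the hairpin. The probes of both forms differ in sequence and binding, so every difference given here is one of signals and not of molecules.

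Levels are given as log2 units above the background of the array, which is the commonest log2 intensity over both tables. The background lay at an intensity of 33445 on Ctrl 1, 32912 on Ctrl 2, 25602 on Ctrl 3 and 25688 on Ctrl 4, and a form counted as above background where its mean over the 4 arrays was over 1 log2 unit higher. Differences are mature minus precursor, with each table set against its own array median. The medians of the mature and precursor tables differed by 0.07 to 0.10 log2 units on an array. The difference of a hairpin had a median SD of 0.38 over the 4 arrays and a median standard error (SE) of 0.17, and the number of arrays limits this precision. Markers of cell types were read on the mature probes. Of 11 names of haematopoietic markers 8 were above background, with miR-223 at 5.02. Above background were 0 of 3 erythroid, 0 of 12 neural, 0 of 9 muscle, 0 of 1 liver and 0 of 6 epithelial names. Of 11 stromal or endothelial names 2 were above background, the higher being miR-126-5p at 1.55, whose miRNA is also found in haematopoietic stem cells. The haematopoietic markers were not chosen to tell LSK cells from other blood cells, and the arrays carry no probe for the surface markers of the sort. These counts therefore do not check the sort itself.

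Mature sequences assigned by name to mature-rich hairpins are shown grouped by seed, since several of them share one. They are a selection: let-7f, miR-15b, miR-497, miR-29b and miR-29c, for example, are not shown. Sequences are from RefSeq (GRCm38.p6), 215 of the 264 hairpins were found there by name, and the arm shown is the one that the plain name usually denotes, because no label or file header says which arm a probe reads. Capitals mark the seed.
let-7b: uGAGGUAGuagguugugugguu
let-7c: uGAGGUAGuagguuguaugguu
let-7a: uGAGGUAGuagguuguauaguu
let-7e: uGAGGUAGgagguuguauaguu
miR-92a: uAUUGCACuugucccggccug
miR-25: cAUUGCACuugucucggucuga
miR-32: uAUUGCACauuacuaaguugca
miR-20b: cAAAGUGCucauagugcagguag
miR-20a: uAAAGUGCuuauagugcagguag
miR-106a: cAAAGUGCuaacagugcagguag
miR-106b: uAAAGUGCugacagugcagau
miR-93: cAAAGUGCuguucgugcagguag
miR-26b: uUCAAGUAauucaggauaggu
miR-26a: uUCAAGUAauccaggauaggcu
miR-107: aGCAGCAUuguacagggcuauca
miR-103: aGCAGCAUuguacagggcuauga
miR-16: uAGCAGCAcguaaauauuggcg
miR-30c: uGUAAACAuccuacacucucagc
miR-181b: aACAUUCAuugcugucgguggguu

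Of the precursor-rich hairpins, the 4 with the largest differences and miR-210, whose difference had the smallest spread among the 10 largest, are shown whole, and beside them miR-92-1 and miR-26b from the other end of the range. Capitals mark the mature arm.
miR-543: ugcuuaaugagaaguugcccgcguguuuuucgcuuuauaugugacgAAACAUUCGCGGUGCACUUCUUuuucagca
miR-495: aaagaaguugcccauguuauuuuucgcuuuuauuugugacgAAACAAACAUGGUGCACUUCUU
miR-323: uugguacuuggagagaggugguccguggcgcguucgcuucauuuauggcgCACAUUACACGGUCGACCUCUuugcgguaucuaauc
miR-219-1: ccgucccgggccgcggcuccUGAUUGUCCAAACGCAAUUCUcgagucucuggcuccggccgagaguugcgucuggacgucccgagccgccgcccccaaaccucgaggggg
miR-210: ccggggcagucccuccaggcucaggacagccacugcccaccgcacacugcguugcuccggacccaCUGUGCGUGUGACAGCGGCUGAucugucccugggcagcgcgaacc
miR-92-1: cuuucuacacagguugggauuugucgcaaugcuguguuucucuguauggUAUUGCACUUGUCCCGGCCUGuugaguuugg
miR-26b: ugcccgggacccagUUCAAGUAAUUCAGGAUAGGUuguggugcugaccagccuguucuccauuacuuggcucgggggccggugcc

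In control LSK cells most hairpins gave signal in neither form, and those that did mostly gave it in 1 form. Of the 264 hairpins, 77 (29.2%) were above background in the mature form and 30 (11.4%) in the precursor form. Both forms were above background for 13 (4.92%), the mature form alone for 64, the precursor form alone for 17 and neither for 170. Counted on single arrays, 72, 80, 79 and 75 mature forms were above background on Ctrl 1 to Ctrl 4, against 30, 38, 33 and 35 precursor forms. The means were 76.5 ± 3.70 mature and 34.0 ± 3.37 precursor forms (SD, n = 4 arrays), and the mature count was the higher on every array. The exact 2-sided sign-flip permutation test gave p = 0.125, which is the smallest that the 16 sign flips of 4 arrays can give.

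A hairpin was called mature-rich or precursor-rich where limma gave an adjusted p under 0.05 over all 264 hairpins, the difference was at least 1 log2 unit and the higher form was above background. By this rule 67 hairpins (25.4%) were mature-rich, 20 (7.58%) precursor-rich and 177 had neither call. The median difference was 2.17 among the mature-rich and -1.77 among the precursor-rich hairpins, and each called difference had the same sign on all 4 arrays. Ctrl 1 and 2 had a higher background intensity than Ctrl 3 and 4. Within Ctrl 1 and 2 the medians were 2.42 and -1.73, and within Ctrl 3 and 4 they were 2.05 and -1.83, for the mature-rich and the precursor-rich hairpins in that order. Of all 264 hairpins, 81 had a higher mature and 30 a higher precursor signal at an adjusted p under 0.05 whatever the size. Hairpins with neither form above background had a median difference of -0.07.

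**Figure D1:**
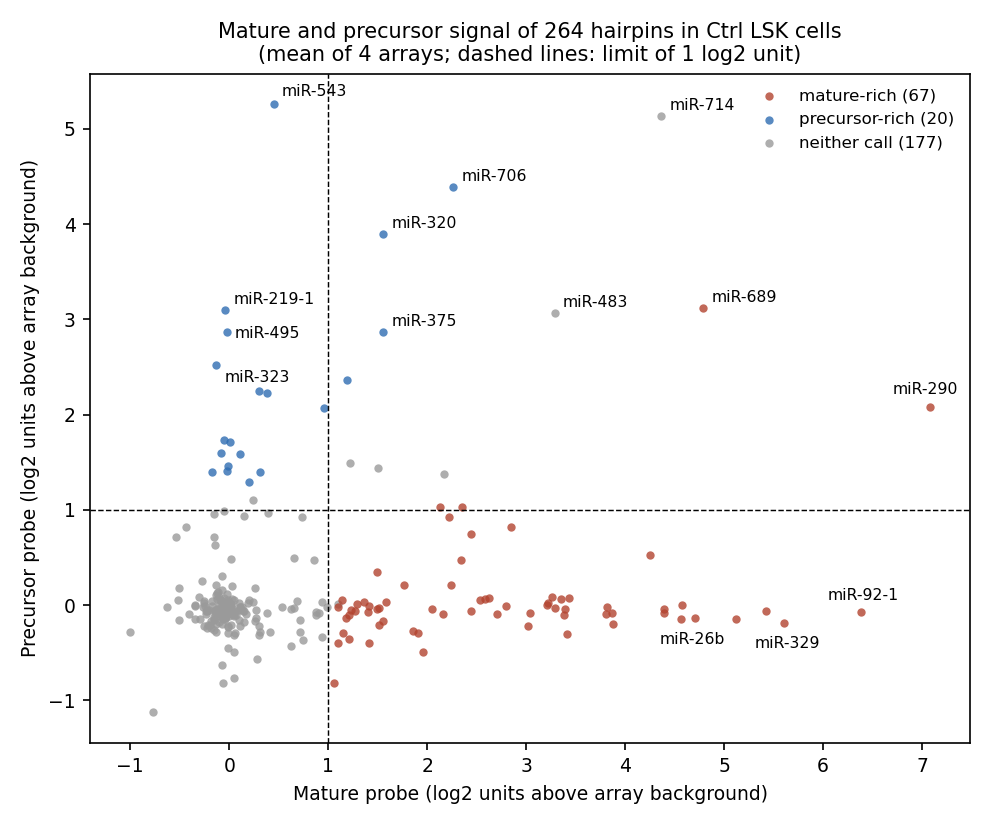
Mean level over 4 Ctrl arrays of the mature probe (x axis) against the precursor probe (y axis) of 264 hairpins, both in log2 units above the array background; dashed lines mark 1 log2 unit and colours the calls. The points lie along both axes: 67 mature-rich hairpins run out to 7.08 on the x axis, 20 precursor-rich hairpins run up to 5.26 on the y axis, and 13 hairpins lie beyond both dashed lines.

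Across all 264 hairpins the levels of both forms had a Pearson r of 0.16 and a Spearman rho of 0.07. Among the 94 with a form above background r was -0.24 and rho -0.32, values that the choice of hairpins by brightness helps to set. These describe hairpins that share arrays and RNA, and hairpins are not independent replicates.

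The mature-rich side was led by miR-92-1 (chr14:115044427-115044506, plus strand), the last hairpin of the cluster of miR-17 to miR-92, which promotes the survival and division of blood progenitors. Its mature probe stood at 6.10, 6.89, 6.47 and 6.06 log2 units above background on Ctrl 1 to Ctrl 4, against -0.09, -0.04, -0.05 and -0.12 for its precursor probe. The 4 arrays lay within 1 log2 unit of each other in each form, and the precursor was at background on all of them. Where the dimmer form is not above background, the fold is a lower bound, with the dimmer form set, array by array, to 1 log2 unit above background or to its own level where that is higher. So bounded, the mature signal of miR-92-1 was at least 41.6-fold the precursor signal (difference 6.37, SE 0.16, adjusted p = 5.04e-05 by limma).

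Its copy miR-92-2 (chrX:52741838-52741928, minus strand), from the paralogous cluster of miR-106a to miR-363, had mature levels of 5.27, 5.66, 5.76 and 5.01, against precursor levels of -0.08, -0.12, -0.02 and -0.05. The mature signal was at least 21.5-fold the precursor signal. miR-20b of the same cluster, a miRNA with the seed of miR-17, averaged 4.39 ± 0.35 in the mature form and -0.04 ± 0.03 in the precursor form (SD, n = 4), a signal at least 10.5-fold higher in the mature form. miR-92-1 and miR-92-2 have the same mature sequence in RefSeq, so the mature signal under either name cannot be assigned to 1 hairpin. The same holds for other copies that share a mature sequence, which count as separate hairpins among the calls.

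miR-26b (chr1:74394310-74394394, plus strand, within the span of Ctdsp1) belongs to a family that represses the histone methyltransferase Ezh2. Its mature probe stood at 4.34, 5.10, 4.64 and 4.18, against -0.39, 0.15, 0.08 and -0.42 for the precursor probe. It had the smallest spread of the 10 largest differences, with an SD of 0.17 around 4.63, and its mature signal was at least 11.8-fold the precursor signal. miR-181b-2 (chr2:38853830-38853918, plus strand), from a family active in lymphoid development, had mature levels of 4.29, 5.04, 5.16 and 3.84, against precursor levels of -0.07, 0.06, -0.04 and 0.03. Its mature signal was at least 11.9-fold the precursor signal.

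miR-329 (chr12:109713481-109713577, plus strand) and miR-494 (chr12:109715318-109715402, plus strand) both lie in the imprinted Dlk1-Dio3 region. miR-329 had mature levels of 5.88, 5.90, 5.40 and 5.23, against precursor levels of -0.71, 0.01, -0.10 and 0.06, at least 24.3-fold. miR-494 had mature levels of 3.84, 3.79, 5.72 and 7.13, against precursor levels of 0.02, -0.89, 0.08 and 0.20, at least 17.4-fold. The spread of miR-494 was the widest of the 10, with differences between 3.74 on Ctrl 1 and 6.84 on Ctrl 4.

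miR-709, reported in mouse to act in the nucleus on the primary transcript of miR-15a and miR-16-1, had mature levels of 3.47, 3.59, 5.25 and 5.26, against precursor levels of -0.10, -0.10, -0.12 and -0.0006. For miR-709 and miR-494 both arrays with the lower background intensity, Ctrl 3 and 4, had the higher mature level, and the part of that intensity in the difference was not tested. Both were mature-rich on each array, and the bound for miR-709 was at least 10.5-fold. miR-690, cloned from mouse tissue, had mature levels of 4.73, 4.50, 4.34 and 5.27, against precursor levels of -0.12 to -0.14, at least 13.1-fold.

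miR-290 heads a cluster known from mouse embryonic stem cells, where it is among the main miRNAs. Its mature levels were 7.27, 7.02, 6.99 and 7.03, against precursor levels of 1.77, 1.28, 2.28 and 2.99, so both forms were above background and the mature signal was 30.1-fold the precursor signal (difference 4.91, SE 0.32, adjusted p = 0.00032 by limma). Of its neighbours with both probes, miR-293 averaged 0.71 in the mature and -0.28 in the precursor form, miR-294 -0.51 and -0.16, and miR-295 -0.15 and -0.16. None of these 3 was above background in either form, and none was called.

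**Figure D2:**
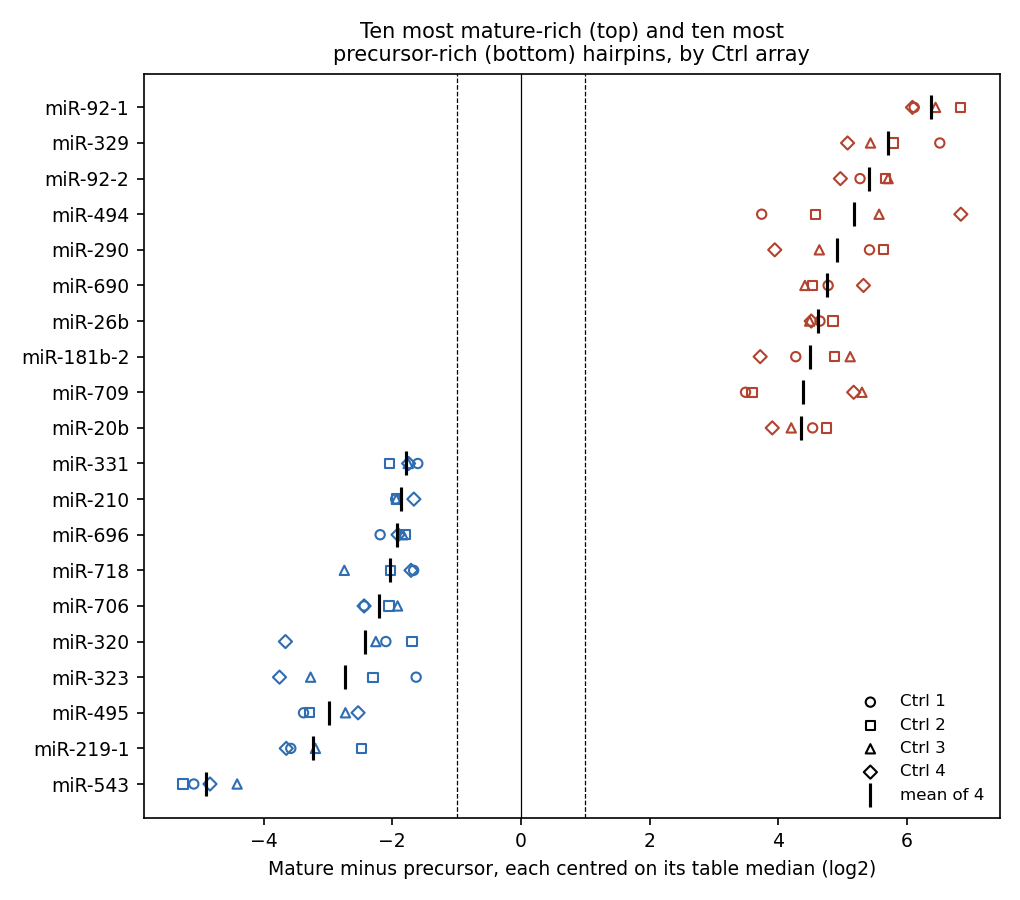
Mature minus precursor difference (x axis, log2, each form centred on its table median) of the 10 most mature-rich and the 10 most precursor-rich hairpins, 1 symbol per Ctrl array and a bar for the mean of 4. miR-26b has the tightest points among the mature-rich hairpins, miR-494 runs from 3.74 to 6.84, and no point of any hairpin crosses 0.

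The 4 largest differences on the precursor-rich side were those of 3 hairpins of the Dlk1-Dio3 region, an imprinted domain whose miRNAs are expressed from the maternal allele, and of miR-219-1, a miRNA of oligodendrocytes. Their mature forms were not above background, so their folds are lower bounds. Only that of miR-543 exceeded the measured 5.38-fold of miR-320 and 4.63-fold of miR-706. Bounds were taken from levels above background and measured folds from the differences centred on the table medians, so their scales differ slightly. miR-543 (chr12:109717258-109717333, plus strand) had mature levels of 0.65, 0.49, 0.67 and -0.02 on Ctrl 1 to Ctrl 4, against precursor levels of 5.65, 5.65, 5.01 and 4.73. The mature form was at background or little above it on every array and the forms did not overlap. The mature signal was at least 19.2-fold lower than the precursor signal (difference -4.90, SE 0.17, adjusted p = 0.000105 by limma).

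miR-495 (chr12:109718754-109718816, plus strand) had mature levels of -0.04, 0.01, -0.10 and 0.03, against precursor levels of 3.26, 3.20, 2.55 and 2.48, and its mature signal was at least 3.66-fold lower. miR-323 (chr12:109712508-109712593, plus strand) had mature levels of -0.17, -0.18, -0.10 and -0.10, against precursor levels of 1.38, 2.02, 3.10 and 3.57, at least 2.87-fold lower in the mature form. The precursor of miR-323 was higher on the arrays with the lower background intensity and that of miR-495 lower on them, and the part of that intensity was not tested. The mature arms of miR-543 and miR-495, shown above, share the run GGUGCACUUCUU of 12 bases at their end, which no other of the 1679 mature names in the RefSeq table holds. The longest run that miR-323 shares with miR-543 has 5 bases. This was looked up after the values were seen and says nothing of what the probes bind.

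miR-219-1 (chr17:34024983-34025092, minus strand) had mature levels of -0.09, 0.35, 0.08 and -0.52, against precursor levels of 3.41, 2.73, 3.21 and 3.05, at least 4.28-fold lower in the mature form. Its precursor value is the mean of 3 probes that disagree: they averaged 0.02, 4.16 and 5.12 log2 units above background, so 1 of them read no signal. miR-210 (chr7:141221384-141221493, minus strand), the miRNA most widely induced by hypoxia, had mature levels of -0.10, -0.03, -0.01 and -0.05, against precursor levels of 1.77, 1.80, 1.85 and 1.53. Its mature signal was at least 1.67-fold lower (difference -1.87, SE 0.10, adjusted p = 0.000212 by limma), and the SD of 0.14 was the smallest among the 10 most precursor-rich hairpins. miR-331 averaged 0.01 in the mature and 1.71 in the precursor form, at least 1.64-fold lower.

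miR-320 is known to be made without Drosha, from a short capped transcript that is itself the Dicer substrate. Its mature levels were 1.47, 1.66, 1.71 and 1.37, against precursor levels of 3.49, 3.26, 3.90 and 4.94, so both forms were above background and the mature signal was the lower on every array. The precursor signal was 5.38-fold the mature signal (difference -2.43, SE 0.35, adjusted p = 0.00439 by limma). miR-706, a cloned mouse miRNA, had mature levels of 2.27, 2.05, 2.35 and 2.39, against precursor levels of 4.63, 4.00, 4.20 and 4.74, a 4.63-fold higher precursor signal. miR-718 averaged 0.30 ± 0.55 in the mature and 2.25 ± 0.38 in the precursor form, and miR-696 0.38 ± 0.28 and 2.23 ± 0.14 (SD, n = 4 each).

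The other 10 precursor-rich hairpins had differences between -1.76 and -1.17. miR-208, encoded in an intron of a heart myosin gene, had a precursor mean of 1.59 with a mature mean of -0.08. miR-218-1, within the span of Slit2 and known from motor neurons, had a mature mean of 0.10 and a precursor mean of 1.59. miR-375, known from pancreatic islets and other endocrine cells, had mature levels of 1.42, 1.33, 1.59 and 1.88, against precursor levels of 2.89, 2.55, 3.02 and 3.01, and its precursor signal was 2.63-fold the mature signal. The rest were miR-760, miR-101b, miR-705, miR-699, miR-125b-1, miR-685 and miR-425.

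The 13 hairpins above background in both forms split evenly between the calls: 4 were mature-rich (miR-290, miR-689, miR-805 and miR-321), 4 precursor-rich (miR-320, miR-706, miR-375 and miR-699) and 5 had neither call. Of these names miR-321 is known to lie in a transfer RNA and miR-805 in the mitochondrial genome. miR-714 had mature levels of 3.34, 4.55, 4.34 and 5.22, against precursor levels of 4.58, 5.02, 5.34 and 5.61, a difference of -0.86 that passed the p threshold (adjusted p = 0.0159 by limma) and missed the limit of 1 log2 unit. miR-483, in an intron of Igf2, had mature levels of 3.20, 3.23, 3.08 and 3.64, against precursor levels of 3.23, 3.35, 2.67 and 3.01. These overlap, and the difference of 0.14 (SE 0.16, adjusted p = 0.584) was smaller than its spread of 0.36 (SD, n = 4).

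miR-689 averaged 4.79 ± 0.10 in the mature and 3.12 ± 0.28 in the precursor form (SD, n = 4), a 3.00-fold higher mature signal. Its 3 mature probes averaged 3.54, 5.05 and 5.76 and its 3 precursor probes 3.08 to 3.15, so each mature probe was the brighter. miR-29a averaged 1.50 ± 0.18 and 1.44 ± 0.49, and its difference of -0.02 (SE 0.22, adjusted p = 0.954 by limma) was not called. miR-703 (2.17 and 1.37) and miR-138-2 (1.22 and 1.49, mature first) had no call either.

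**Figure D3:**
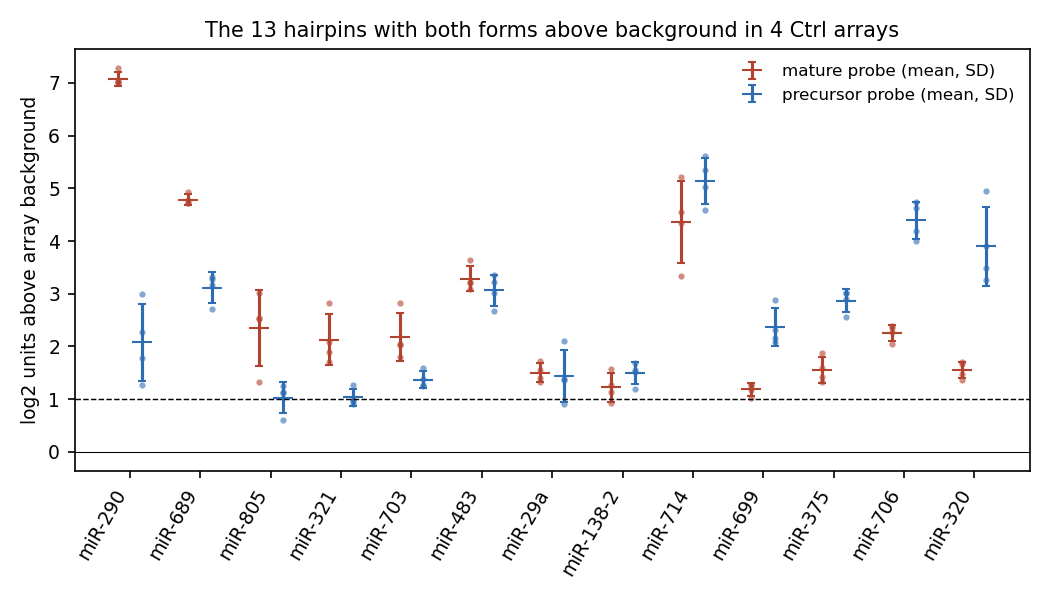
Levels of the mature probe (left of each pair) and the precursor probe (right) of the 13 hairpins above background in both forms, in log2 units above array background (y axis); points are the 4 Ctrl arrays, bars the mean and SD, and the dashed line is 1 log2 unit. Hairpins run from the most mature-rich, miR-290 (7.08 against 2.08), to the most precursor-rich, miR-320 (1.55 against 3.90), and the levels of miR-483 and miR-29a overlap between forms.

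The limits of the calls were set beside the hairpins nearest to them among those with the higher form above background. Nearest inside the limit on the mature side lay miR-15b (1.00), miR-321 (1.01) and miR-146b (1.04), and nearest outside it let-7f-1 (0.996), miR-703 (0.72) and miR-483 (0.14). Nearest inside on the precursor side lay miR-425 (-1.17), miR-685 (-1.17) and miR-125b-1 (-1.20), and nearest outside it miR-138-1 (-0.95), miR-714 (-0.86) and miR-138-2 (-0.35). Of the named hairpins, the calls of miR-15b, miR-321, miR-146b, miR-425 and miR-668 ended without single arrays. miR-15b had adjusted p = 0.0735 without Ctrl 1 and 0.11 without Ctrl 3 (limma) and a difference of 0.70 without Ctrl 2. miR-321 had a difference of 0.86 without Ctrl 1 and 0.98 without Ctrl 3. miR-146b had a difference of 0.89 without Ctrl 2 and of 0.95 without Ctrl 3 (adjusted p = 0.0511 by limma). miR-425 had adjusted p = 0.133 to 0.151 by limma without Ctrl 1, 2 or 3. miR-668 kept a difference of 1.26 without Ctrl 4 (adjusted p = 0.0075 by limma) and had no mature form above background there.

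A mature sequence, and so a seed, was assigned to 94 hairpins, of which 43 (45.7%) were mature-rich, against 25.4% of all 264. The names were assigned with the values known, so these shares are descriptions. At least 2 hairpins held the same seed for 16 seeds with 51 hairpins, of which 35 (68.6%) were mature-rich and 1 was precursor-rich. Genomic copies of 1 miRNA count as separate hairpins here, so these are not counts of separate miRNAs. The seeds of miR-181b, miR-30c, miR-196a, miR-7, miR-138 and miR-219 were each held only by copies with the same mature sequence. Probes of hairpins that share a seed may read each other's miRNAs, which was not tested. The let-7 seed GAGGUAG had 6 of 7 hairpins mature-rich, the miR-17 seed AAAGUGC 5 of 5, the miR-92 seed AUUGCAC 4 of 5, the miR-16 seed AGCAGCA 4 of 4, the miR-103 seed GCAGCAU 3 of 3 and the miR-26 seed UCAAGUA 3 of 3. The seeds of miR-181b (ACAUUCA) and miR-30c (GUAAACA) had 2 of 2 each, and that of miR-29 (AGCACCA) 2 of 4. The miR-130 seed AGUGCAA had 1 of 3, and the seeds of miR-196a (AGGUAGU), miR-128 (CACAGUG) and miR-7 (GGAAGAC) had 1 of 2 each. The miR-19 seed GUGCAAA had 0 of 3, the miR-138 seed GCUGGUG 0 of 2 and the miR-219 seed GAUUGUC 0 of 2, with miR-219-1 precursor-rich.

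The let-7 family restrains proliferation, and in embryonic cells its precursors are held back by LIN28. With miR-98 it had 9 matched hairpins, of which 7 were mature-rich and 0 precursor-rich, with a median difference of 3.12. These are 77.8% and 0.0% of the family, against 25.4%, 7.58% and a median of 0.01 among all 264. let-7a-2 (chr9:41536716-41536811, plus strand) had mature levels of 3.86, 4.08, 3.98 and 3.34, against precursor levels of -0.02, 0.02, -0.06 and -0.02, at least 7.04-fold. let-7b averaged 3.41 and -0.30, let-7c-1 3.38 and -0.10, and let-7e 1.37 and 0.04 in the mature and precursor form. No let-7 precursor was above background, and miR-98, at -0.35 in the mature and -0.14 in the precursor form, gave no signal in either.

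Of 13 hairpins in the miR-17 cluster and the clusters paralogous to it, 8 (61.5%) were mature-rich and 0 precursor-rich, with a median difference of 2.44, against 25.4% and 7.58% of all 264. The 3 hairpins of the cluster of miR-106b to miR-25, within the span of the replication gene Mcm7, were all mature-rich: miR-106b averaged 2.63 ± 0.33 and 0.07 ± 0.14, miR-93 2.34 ± 0.51 and 0.47 ± 0.38, and miR-25 3.26 ± 0.78 and 0.08 ± 0.08 in the mature and precursor form (SD, n = 4). In the cluster on chromosome 14 (chr14:115043851-115044506) miR-20a and miR-92-1 were mature-rich, while miR-18, miR-19a and miR-19b-1 had no form above background. Their mature levels averaged -0.07, 0.13 and -0.05. The same held in the X-linked cluster (chrX:52741693-52742567), where miR-106a, miR-20b and miR-92-2 were mature-rich and miR-19b-2 and miR-363 lay at background in both forms.

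miRNAs of the haematopoietic lineages had 10 matched hairpins, 8 of them mature-rich and 0 precursor-rich, with a median of 2.06, against 25.4% and 7.58% of all 264. Beside both copies of miR-181b these were miR-181c (2.53 in the mature and 0.06 in the precursor form), miR-221 (2.79 and -0.01), both copies of miR-16, miR-15a and miR-15b. miR-451 and miR-486, miRNAs of red cells, gave no signal in either form. All 5 hairpins of miR-15, miR-16 and miR-497, which restrain the cell cycle, were mature-rich (median 1.46), as were all 3 of miR-30 (median 3.12) and both of miR-23a and miR-27a (3.27 and 1.20). Of 4 miR-29 hairpins 2 were mature-rich, with a median of 0.85.

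On the list of miRNAs enriched in haematopoietic stem cells 5 of 12 hairpins were mature-rich (miR-130a, miR-196a-2, miR-10a-1, miR-99b and miR-146b). Only 1 was precursor-rich (miR-125b-1), and the median was 0.85. The calls make up 41.7% and 8.33% of the list, against 25.4% and 7.58% of all 264. The precursor-rich share thus rests on 1 hairpin and is near that of all 264. miR-130a, the highest of them, had mature levels of 2.64, 2.88, 3.09 and 2.20, against precursor levels of -0.06, -0.08, -0.17 and -0.06, at least 3.26-fold. miR-125b-1 (chr9:41581926-41582002, plus strand), whose miRNA expands stem cells when overexpressed, had mature levels of 0.91, 1.37, 0.95 and 0.58, against precursor levels of 1.91, 2.21, 1.91 and 2.24, at least 1.97-fold lower in the mature form. It lies on the same strand of chromosome 9 as the mature-rich let-7a-2. The other copy, miR-125b-2, had a higher mature signal (difference 0.87, adjusted p = 0.0029 by limma). It averaged 0.88 in the mature and -0.07 in the precursor form, and it had no call.

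The list of miRNAs reported to be made without Drosha or DGCR8 had 3 matched hairpins, with a median of -1.34. Of these miR-320 was precursor-rich, miR-668 mature-rich (1.15 in the mature and -0.30 in the precursor form) and miR-344 had no call (-0.43 and 0.82). The shares of 33.3% in each direction rest on 1 hairpin each, against 25.4% mature-rich and 7.58% precursor-rich of all 264. Of 4 hairpins of miRNAs that published work describes as held at the precursor step, 1 was mature-rich, 0 were precursor-rich and the median was -0.19. Among them is miR-138, whose precursor is known to occur in many tissues that lack the mature form. miR-138-1 (chr9:122682876-122682974, plus strand) had mature levels of -0.29, 0.13, 0.41 and 0.69, against precursor levels of 0.94, 1.22, 1.04 and 1.19. The precursor was the higher on each array (difference -0.95, SE 0.16, adjusted p = 0.00806 by limma), short of the limit of 1 log2 unit. The other copy, miR-138-2, was above background in both forms, at 1.22 in the mature and 1.49 in the precursor form. Its difference of -0.35 had no call (adjusted p = 0.186 by limma). miR-128a was mature-rich, at 1.21 and -0.35.

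Lists of miRNAs of other tissues were set beside all 264 hairpins, of which 170 had neither form above background. Neither form was above background for 9 of 15 brain and neuroendocrine, 2 of 3 muscle, 4 of 4 epithelial and 4 of 4 liver hairpins. The same held for 1 of 2 stromal or endothelial hairpins. Of 15 hairpins of brain and neuroendocrine miRNAs 1 was mature-rich (miR-7-2, at 2.24 in the mature and 0.21 in the precursor form) and 3 precursor-rich (miR-219-1, miR-218-1 and miR-375), with a median of -0.21. The mature-rich share was 6.67%, against 25.4% of all 264, and 3 of 15 precursor-rich stand against 7.58%. Of 3 muscle hairpins 0 were mature-rich and 1 was precursor-rich (miR-208), and the median was -0.02. None of 4 epithelial (median 0.03) and 4 liver hairpins (median -0.11) was called in either direction, and of 2 stromal or endothelial hairpins 1 was mature-rich (miR-10a-1, which the stem cell list also holds), with a median of 0.95. On the brain and neuroendocrine list 3 mature and 5 precursor forms were above background. On the muscle list 0 mature forms and 1 precursor form were. Among all 264 hairpins 29.2% of mature and 11.4% of precursor forms were above background. The neural and muscle markers counted above are other miRNAs than miR-219-1, miR-218-1 and miR-208, so the forms cannot be compared between them. Of 39 cloned mouse miRNAs numbered miR-680 to miR-721, 6 were mature-rich (miR-690, miR-709, miR-700, miR-720, miR-689 and miR-702) and 6 precursor-rich (miR-706, miR-718, miR-696, miR-705, miR-699 and miR-685), or 15.4% each, with a median of -0.06. miR-720, at 3.40 and -0.05, has since been traced to a transfer RNA.

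The Dlk1-Dio3 miRNAs held hairpins of both calls side by side. On the list 6 of 32 hairpins (18.8%) were mature-rich and 3 (9.38%) precursor-rich, with a median of -0.08, both shares near the 25.4% and 7.58% of all 264. Grouping hairpins on 1 strand that lie at most 10000 bases from the next gave 27 clusters with 89 hairpins, and the cluster at chr12:109709060-109743795 (plus strand) was the 1 cluster with both calls. It has 24 of the 89 hairpins, while the next largest clusters have 5 each, and no other cluster held a precursor-rich hairpin. The part of its size in having both calls was not tested. Of its 24 hairpins 5 were mature-rich and 3 precursor-rich, with differences from -4.90 to 5.71. Along the strand the precursor-rich miR-323 lies 3.448 kb from the first hairpin, the mature-rich miR-329, miR-494 and miR-679 at 4.421, 6.258 and 6.517 kb, the precursor-rich miR-543 and miR-495 at 8.198 and 9.694 kb, and the mature-rich miR-667 at 10.946 and miR-668 at 25.672 kb. The other 16 hairpins had no call.

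**Figure D4:**
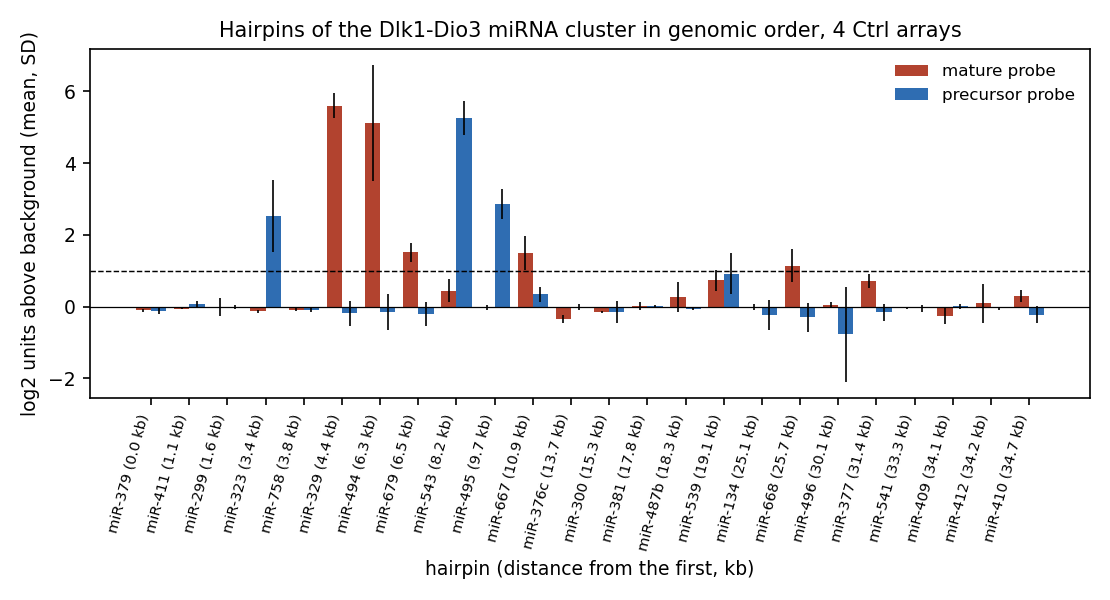
Mean level over 4 Ctrl arrays (bars, with SD) of the mature and precursor probes of 24 hairpins of the Dlk1-Dio3 cluster, in log2 units above array background (y axis), in genomic order with the distance from the first hairpin in kb (x axis); the dashed line is 1 log2 unit. miR-329 and miR-494 reach 5.60 and 5.12 in the mature form alone, miR-543 5.26 in the precursor form alone, and 16 hairpins have no call.

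Genomic copies of 1 miRNA share the mature strand, or nearly so, and differ in the rest of the hairpin. There were 21 pairs of copies with both forms matched, of which 8 (38.1%) differed in mature signal and 4 (19.0%) in precursor signal at an adjusted p under 0.05 by limma over the 21 pairs. Without Ctrl 2, and likewise without Ctrl 4, the precursor count was 2. For miR-125b the mature levels of copy 1 (0.91, 1.37, 0.95 and 0.58) and copy 2 (1.00, 1.12, 0.72 and 0.68) overlapped, with a difference of 0.07 (SE 0.13, adjusted p = 0.768). The precursor levels of copy 1 (1.91, 2.21, 1.91 and 2.24) lay above those of copy 2 (-0.08, -0.02, -0.14 and -0.05) by 2.14 (SE 0.07, adjusted p = 0.000108).

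Likewise the mature levels of miR-219-1 and miR-219-2 differed by -0.10 (SE 0.14, adjusted p = 0.768), both at background, and the precursor of miR-219-1 stood 3.41 above that of miR-219-2 (SE 0.29, adjusted p = 0.00271), in 2 of its 3 probes. Smaller precursor differences were found between miR-103-1 and miR-103-2 (0.81, SE 0.12, adjusted p = 0.0145), whose precursor levels averaged 0.75 and -0.06, and between miR-30c-1 and miR-30c-2 (0.76, SE 0.12, adjusted p = 0.0145), at 0.82 and 0.06. In neither pair was a precursor above background.

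A shared mature sequence was found by name in RefSeq for 17 pairs, of which 6 differed in mature signal nevertheless. For the other pairs none was found by name, which does not show that their mature strands differ. Among these, let-7a-1 and let-7a-2 differed by -0.61 (adjusted p = 0.00394 by limma) and miR-297-1 and miR-297-2 by 0.63 (adjusted p = 0.0152 by limma). miR-181b-1 (chr1:137966639-137966718, plus strand) had mature levels of 1.74, 1.97, 2.87 and 1.60, against 4.29, 5.04, 5.16 and 3.84 for miR-181b-2, a difference of -2.53 (SE 0.16, adjusted p = 2.06e-06). miR-7-1 and miR-7-2 averaged -0.22 and 2.24 in the mature form (-2.46, SE 0.17, adjusted p = 2.06e-06), and miR-92-1 stood 0.95 above miR-92-2 (SE 0.13, adjusted p = 0.000453). Differences between -0.99 and -0.51 were found for miR-138, miR-29b and miR-30c. The hairpins of the miR-181b pair are shown because the same mature strand sits in them with other bases around it, with the mature arm in capitals, and a probe named for a copy may read bases of either. Probe sequences were not used here.
miR-181b-1: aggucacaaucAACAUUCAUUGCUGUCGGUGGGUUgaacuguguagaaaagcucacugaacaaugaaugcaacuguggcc
miR-181b-2: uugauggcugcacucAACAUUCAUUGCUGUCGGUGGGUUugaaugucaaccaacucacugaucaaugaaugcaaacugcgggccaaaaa

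**Figure D5:**
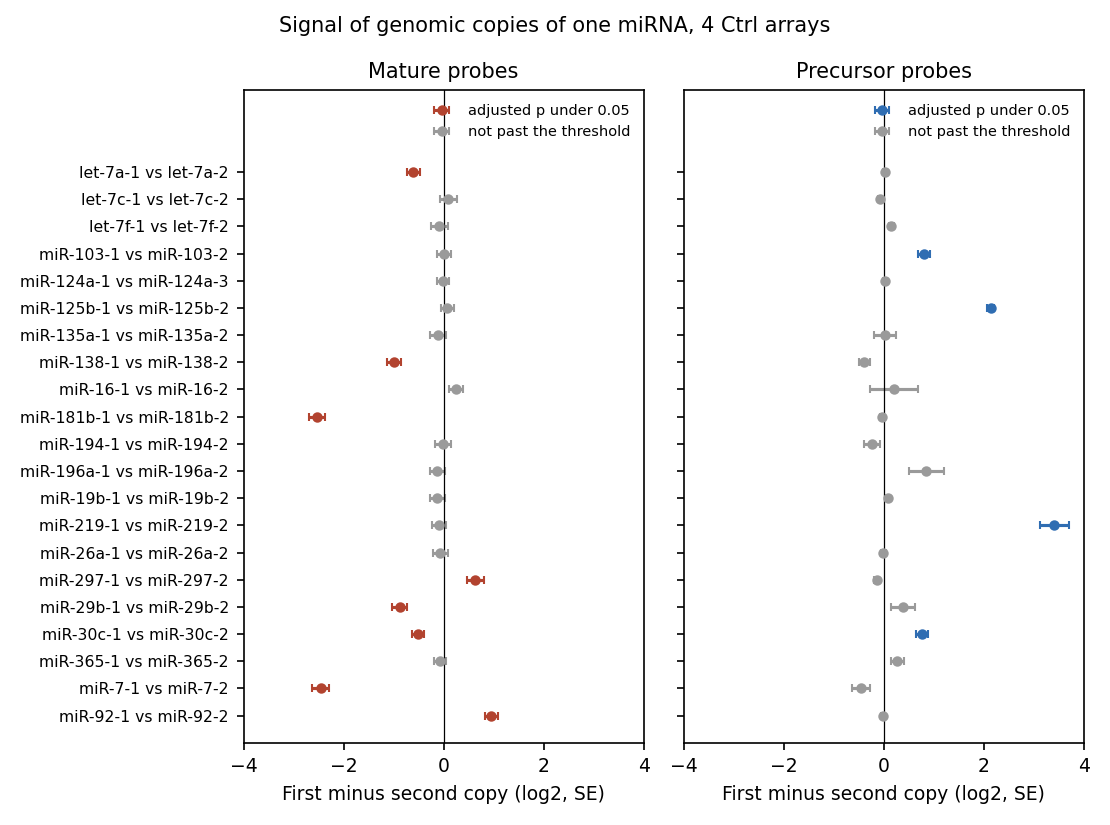
Difference between the first and the second genomic copy of 21 pairs, for mature probes (left) and precursor probes (right), as log2 with SE over 4 Ctrl arrays (x axis); coloured points have an adjusted p under 0.05. In the mature panel miR-181b and miR-7 lie at -2.53 and -2.46, and in the precursor panel miR-219 and miR-125b lie at 3.41 and 2.14.

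Length, base composition and predicted folding of the hairpins were compared with the signals for the 215 hairpins with a RefSeq sequence, as a description. The median length was 87.0 bases for 52 mature-rich and 86.0 for 15 precursor-rich hairpins. The median share of G and C was 47.3% among the mature-rich, 53.2% among the precursor-rich and 47.6% among all 215 hairpins. miR-210 and miR-219-1, both precursor-rich, had 69.1% each, while the precursor-rich miR-495 had 34.9%. The share of G and C had a Pearson r of 0.17 and a Spearman rho of 0.21 with the precursor level, and -0.04 and -0.0066 with the mature level. The minimum folding energy per base had a median of -0.43 kcal/mol for the mature-rich and -0.44 kcal/mol for the precursor-rich hairpins, and its r with the difference was 0.0036. Base composition can also move the binding of a probe, and its part in the calls was not tested.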

How the data were processed

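Per the labels' protocols, the authors reverse-transcribed 5 µg of total RNA from biotin-tagged octamer primers and read 1-colour miRNA arrays on an Axon scanner. The deposited values are intensities on a linear scale, called normalized (scaled) signal in a template comment of the files. Neither labels nor file headers state the scaling, the background treatment or the arm each probe reads. Values were taken as log2(intensity + 1), the 521 mature and 300 precursor probes were averaged by name, and each table was centred on its median in each array. Per-array differences, mature minus precursor, were tested against 0 with limma 3.58.1 in R 4.3.3 (lmFit and eBayes, Benjamini-Hochberg over 264 hairpins), and the copy pairs over 21 pairs. The fit was tested on simulated data. Folding used RNAfold 2.7.2. Alternatives changed the centring, pseudocount, background, limits, probe averaging, pairing and arrays used.

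The replicate block of the main fit is the array itself: both forms of a mouse come from the same array. The hairpins named are the 10 largest and 10 lowest called differences with the same sign on all 4 arrays, the 10 hairpins above background in both forms whose dimmer form was brightest, the copy pairs with the largest precursor differences, the 3 on each side of each limit and the extremes of each list. Further hairpins are named as called members of a list, seed, cluster or copy pair, or as neighbours of miR-290, and were chosen after their values were seen. The members, lists and rules were chosen with earlier results of these data known, so no list is independent support. Names were matched without the mouse prefix and the form suffix; miR-129-1 was matched after its arm was dropped. No matched precursor was found for 169 mature names, and no mature name for 6 precursor names. The 4 names (6 probes) that read both forms were left out.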

Additional observations from a re-analysis of the deposited data

Results flagged for a closer look

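In 3 of 64 groups of 4 arrays tested, 1 array stood apart from the other 3 in its difference between forms, by Dixon's test at the 95% level. Chance flags about 1 in 20 groups. miR-210 had -1.66 on Ctrl 4, the weakest of its 4 precursor-rich values. miR-125b-1 had -1.75 on Ctrl 4, its strongest. miR-19b-1, at background in both forms, had -0.85 on Ctrl 3.

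Probes outside the matched hairpins gave signal too. The precursor of miR-181a-2, which has no mature probe of the same copy name, stood at 4.96, 4.26, 4.25 and 4.68 log2 units above background on Ctrl 1 to Ctrl 4 (mean 4.54), and that of miR-24-2 averaged 2.18. Of the probes that read both forms, those of miR-199a-2-5p averaged 1.50.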

How the results depend on the processing

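No called difference of a named hairpin changed sign in any alternative run, and the counts of 67 mature-rich and 20 precursor-rich hairpins moved by less than 1.5 times in all but the stricter limits. With a minimum difference of 2 log2 units 37 and 7 were called. With a limit of 2 log2 units above background 42 and 11 were called, 5 hairpins had both forms above it, and 46 mature and 15 precursor forms passed. Without the pairing of forms within arrays (no replicate block) 66 and 19 were called, and 6 copy pairs differed in mature and 5 in precursor signal. Leaving out each mouse in turn gave 63 to 65 mature-rich and 18 to 22 precursor-rich hairpins, 2 to 4 copy pairs in precursor signal (2 without Ctrl 2 and 2 without Ctrl 4) and 7 to 8 in mature signal. Other centring, quantile normalization, a pseudocount of 1000, or the brightest probe of a name gave 66 to 68 and 20. Brightness on every array gave 53 and 18. The 4 Tsc1 cKO arrays, handled alone, gave 52 and 17, of which 51 and 15 were also called in Ctrl; miR-494 had 3.65 there (adjusted p = 0.0563). Over the 61 named hairpins, 449 repeats of a called difference kept the call and 24 fell short of it, mostly those of hairpins near a limit (miR-15b, miR-321, miR-146b and miR-425), and 9 repeats of uncalled ones passed; the cause was not tested. Signals at background limit the size of 63 mature-rich and 16 precursor-rich differences to a lower bound.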
